A study of Homo sapiens with 8 samples.

Results

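The mitosis genes described here are 40 named genes whose products drive entry into mitosis, build the spindle, attach chromosomes to it or close the division. They were taken by name from a given list, out of the 36337 gene names on the array, and the rule uses no measured value, although the list was drawn up with earlier results of these data known. The array carries 50 probes for them, and the probes of a gene are reported apart. FT293 cells are human embryonic kidney HEK293 cells in which the Flp-In T-REx system puts a transgene at a single genomic site under a tetracycline switch. RNA came from FT293 cells expressing GFP, the control protein, or GFP-tagged HuR, TIA1 or TIAR, and all 4 lines had been on tetracycline until day 3, so the GFP line carries the switch and the drug as well. Each line gave 2 one-colour arrays which the labels call independent replicates, 8 arrays in all. The title of TIA1 replicate 2 names GFP-TIA1 while its source name reads GFP-TIA2, and it was kept with TIA1 by its title. The HuR line served as the main reference of the study. HuR, TIA1 and TIAR are RNA-binding proteins that recognise U-rich stretches, mostly in the 3' ends of mRNAs, with HuR known as a stabiliser and the TIA proteins as repressors of translation and regulators of splicing.

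Cyclin B with CDK1 starts mitosis, and Aurora and Polo kinases shape the spindle. The spindle checkpoint then holds the anaphase-promoting complex until every chromosome is attached, after which cyclin B and securin are destroyed. Most of these genes are transcribed late in the cell cycle, under promoters with CCAAT boxes and a cell cycle homology region (CHR), so their mRNAs usually mark the cells in G2 and M phase. In RNA from whole cultures, fewer cells in a phase and less RNA per cell cannot be told apart.

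Values are log2 signals relative to the array's 75th percentile, so 0 is that percentile. All 8 arrays read 49 of the 50 probes well above background. The other, for CKAP2 and placed by the array design on chromosome 9, was above background on none and was not tested. A probe was called where limma gave a Benjamini-Hochberg adjusted p under 0.05 over all probes tested and the lines differed at least 2-fold. A second count took the same adjusted p with no minimum of fold. With 2 arrays a line, that small number sets the precision of every value.

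The array named GFP 1 stood apart. On it, 86.1% of probes were well above background, against 53.3% to 58.6% on the others, and its local background was 88.7 intensity units against 37.2 to 43.2. Over the 49 mitosis probes the GFP arrays differed by a median of 0.31 in absolute log2, compared with 0.07 for HuR, 0.12 for TIA1 and 0.12 for TIAR. GFP and TIA1 arrays lay in row 1 of the slide and HuR and TIAR arrays in row 2, so row and line cannot be told apart in the comparisons of TIA1 with HuR, TIAR with GFP, HuR with GFP and TIAR with TIA1. The HEK293 markers NEFL, VIM, KRT8 and KRT18 and the proliferation markers MKI67, PCNA and MCM2 were well above background on all 8 arrays, as was 1 of 2 PAX2 probes, while NEFM was so on 7. Of markers of other cell types, HBB and PECAM1 were above background on at most 1 array and CD3E on at most 2, while ALB was so on 6 and 1 of 5 PTPRC probes on all 8. One probe of TIAL1, the gene of TIAR, read 4.87 and 4.98 on the TIAR arrays and 2.46 and 2.52 on the HuR arrays. No probe of TIA1 was higher in TIA1-expressing cells than in HuR-expressing cells. The ELAVL1 (HuR) probe read 0.33 and 0.42 on the HuR arrays and 0.91 to 1.09 on the GFP arrays, and it is not stated whether these probes match the transgenes.

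Probe sequences are shown for the genes on which the results turn, because probes at different places of one gene gave different answers. Each is the 5' to 3' sequence of the mRNA strand read from the scanner files, positions are on hg19 (GRCh37) on the plus strand unless named otherwise, and capitals mark runs of at least 3 T, the DNA letters for the U-rich stretches that these proteins are known to bind. The first CCNB1 probe crosses an exon junction and is given whole, and the others by their most T-rich 30 bases.
CCNB1 5' probe (chr5:68471363-68473123): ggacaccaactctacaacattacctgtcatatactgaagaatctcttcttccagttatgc
CCNB1 3' probe (chr5:68473872-68473931): tccccctgTTTTctgTTTcttcttgtgatt
CKAP2 5' probe (chr13:53035863-53035922): ccagttcttctcaaggtataataagaaata
CKAP2 3' probe (chr13:53050394-53050453): tcTTTTctaTTTattgacttctcatgttct
BUB3 NM_001007793 probe (chr10:124917262-124917321): atgatgcccctatcagatgtgttgaatact
BUB3 NM_004725 probe (chr10:124924177-124924236): TTTacataTTTctctgacaTTTatatagtt
UBE2C probe (chr20:44445525-44445584): cccttgtatattaaataaatgcaTTTTTgt
TOP2A probe (chr17:38545709-38545768, minus strand): tgtgaggcgattaTTTTaagtaattatctt

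The CCNB1 3' probe is 43.3% T with 2 such runs, and the 5' probe is 30% T with none. For CKAP2 the shares are 46.7% with 3 runs at the 3' probe and 26.7% with none at the 5' probe. For BUB3 they are 41.7% with 4 runs and 28.3% with none. Over the 9 genes with several tested probes, counted after the values were seen, the probe with the larger share of T had the higher difference from HuR in 6 genes with TIA1 and in 7 with TIAR. NEK2 went the other way in both, with 0.64 with TIA1 at 18.3% T and no run against 0.40 at 26.7% T and 2 runs. HMMR, which fell against HuR, has a probe of 41.7% T with 3 runs. In CCNB1, CENPF, CKAP2, KIF23, KIF4A and PLK1 the probe with the larger share of T was also the 3' one. The same held for BUB3 by position in the gene. There the share of T and the position cannot be told apart. No such count was made over the other genes of the array, and the part of the T share in the results was not tested.

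Against HuR-expressing cells, mitosis genes were mostly a little higher in TIA1-expressing cells. The median log2 difference over the 49 probes was 0.32, beside 0.08 over all 28740 probes tested, and 37 of the 49, or 75.5%, lay above 0, beside 55.7% of all. Called upregulated were 4 probes, of CCNB1, UBE2C, CKAP2 and TOP2A, or 8.16% of the 49, close to the 8.49% of all probes tested. None was called downregulated, beside 4.9% of all probes. With no minimum of fold, 17 probes of 16 genes were higher, 34.7% of the 49 against 24.2% of all probes, and 3 were lower, 6.12% against 17.3%.

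TIAR-expressing cells are compared with the same HuR arrays, so the 2 sets of differences share that reference. The median was 0.23 for the 49 probes and 0.05 for all 29097 tested, with 36 of 49, or 73.5%, above 0, beside 54.6% of all. Called upregulated were CCNB1, UBE2C and CDC25B, 6.12% of the probes beside 7.06% of all, and called downregulated were none, beside 3.01%. With no minimum of fold, 10 probes were higher, 20.4% against 18.1%, and 3 were lower, 6.12% against 12.6%.

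**Figure D1:**
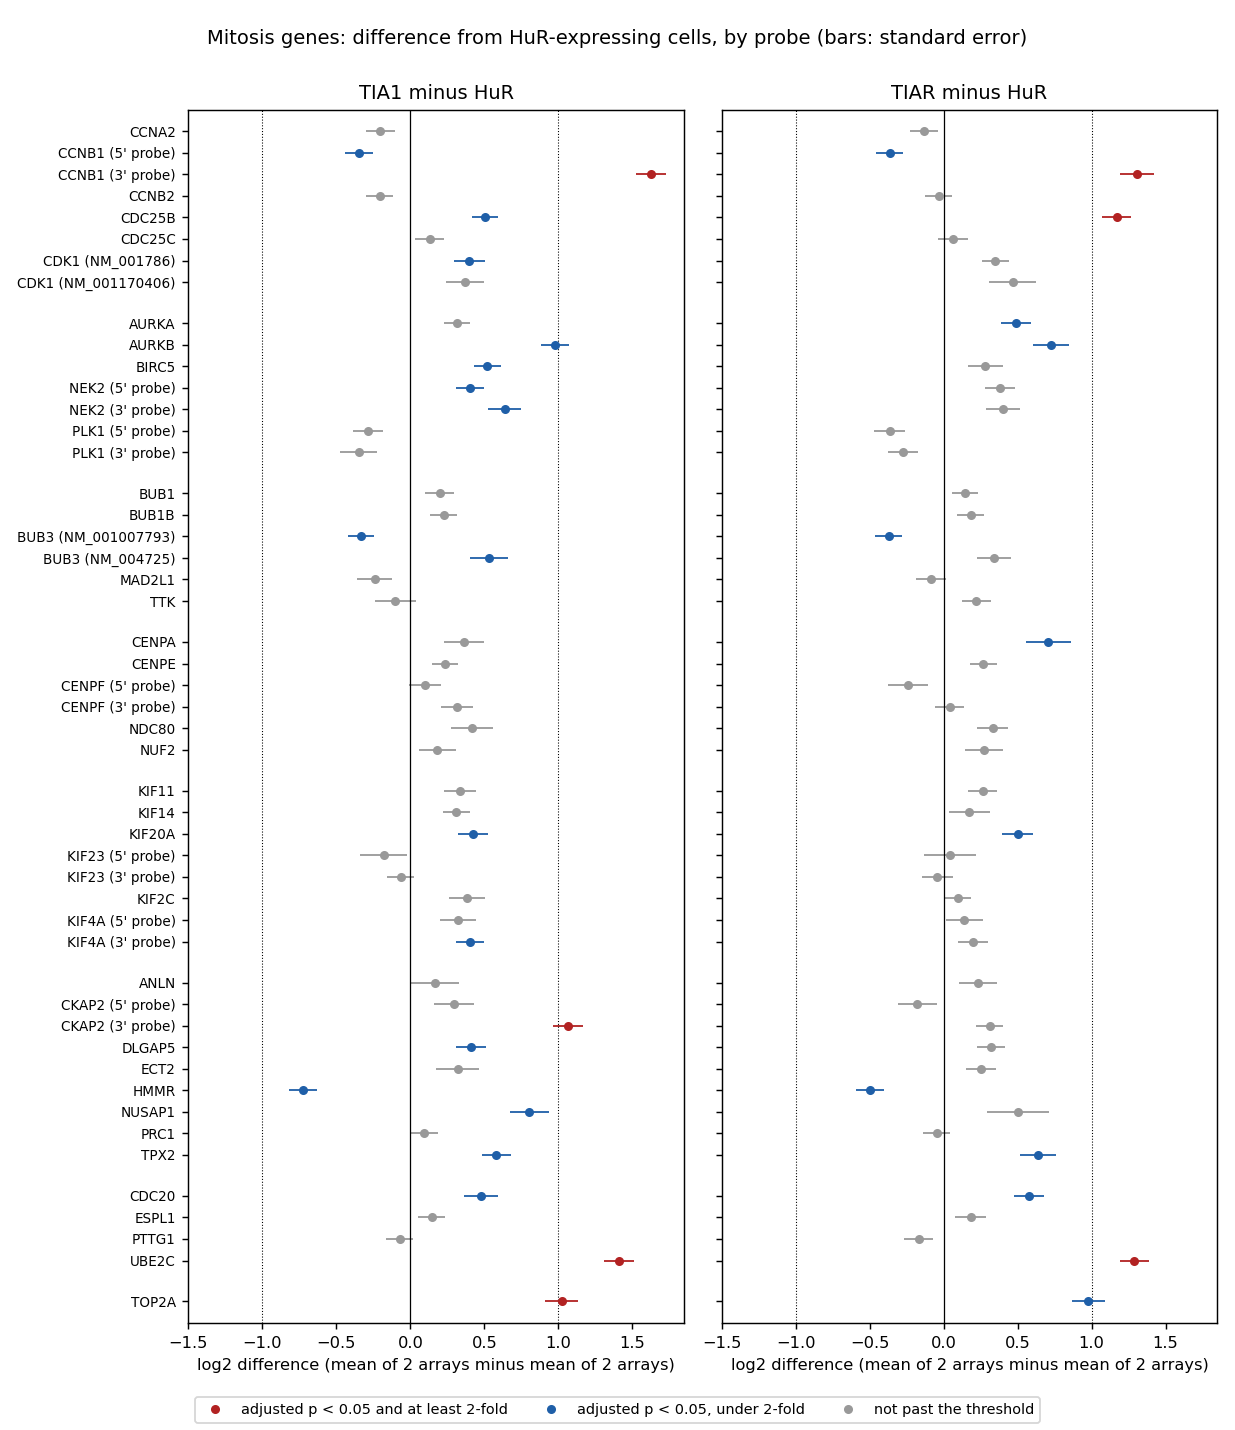
Log2 differences from HuR-expressing cells for the 49 tested probes, ordered by role from mitotic entry at the top to TOP2A at the bottom, with TIA1 on the left and TIAR on the right. Points are differences of means of 2 arrays, bars are limma standard errors and dotted lines mark 2-fold; most points lie between 0 and 1, and only 4 probes on the left and 3 on the right are called.

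Leaving out 1 HuR array lowered these counts, and the share called over all probes of the array fell as well. Without HuR replicate 1 and 2 in turn, the medians over the mitosis probes were 0.31 and 0.28 for TIA1. For TIAR they were 0.23 and 0.25. As the share over all probes fell, calls with a lone HuR array cannot tell whether single calls hold. Over 13 settings, left-out arrays among them, the CCNB1 3' probe stayed 1.56 to 1.70 above HuR with TIA1. With TIAR it stayed 1.23 to 1.475 above. UBE2C stayed 1.36 to 1.47 above HuR with TIA1 and 1.24 to 1.385 with TIAR. CDC25B stayed 1.11 to 1.32 above with TIAR. With TIA1, CKAP2 stayed 1.00 to 1.14 above and TOP2A 0.94 to 1.10. Leaving out TIA1 replicate 1 gave a median of 0.26, beside 0.11 over all probes tested. It lowered the count of called mitosis probes too, although the share called over all probes did not fall there.

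Genes of mitotic entry split. CCNB1 encodes cyclin B1, the partner of CDK1, and its probes moved in opposite directions. The 3' probe, at position 1968 of NM_031966, read 1.89 and 1.74 on the HuR arrays, 3.43 and 3.46 on TIA1, 3.19 and 3.05 on TIAR, and 2.56 and 2.74 on GFP. All TIA1 and TIAR arrays lay above the GFP arrays, which lay above the HuR arrays. It rose by 1.63 (SE 0.10, adjusted p = 0.0026, limma) in TIA1- and 1.30 (SE 0.11, adjusted p = 0.00646) in TIAR-expressing cells, 3.09-fold and 2.47-fold.

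The 5' probe of CCNB1, at position 1334 of the same transcript and read from 10 spots per array, gave 4.78 and 4.75 on HuR, 4.47 and 4.37 on TIA1, 4.43 and 4.38 on TIAR, and 4.42 and 4.74 on GFP. It was lower than HuR by -0.35 (SE 0.10, limma adjusted p = 0.0483) in TIA1- and -0.36 (SE 0.09, adjusted p = 0.0498) in TIAR-expressing cells, with no overlap between these arrays and those of HuR. The GFP arrays spanned both levels.

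CDK1, the kinase itself, has 2 probes on different transcripts. The probe on NM_001786, from 10 spots, read 3.70 and 3.74 on HuR, 4.20 and 4.04 on TIA1, 4.07 and 4.07 on TIAR, and 3.30 and 3.79 on GFP. Its difference was 0.40 (SE 0.10, limma adjusted p = 0.0427) for TIA1 and 0.35 (adjusted p = 0.0542) for TIAR. The other, on the shorter form NM_001170406, read -2.94 and -3.11 on HuR, -2.76 and -2.55 on TIA1, -2.39 and -2.72 on TIAR, and -3.64 and -3.62 on GFP, with limma adjusted p of 0.0846 and 0.0912 against HuR. On both probes every TIA1 and TIAR array was above every control array.

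CDC25B, a phosphatase that activates CDK1, was the member that most separated the TIA lines upwards for TIAR. Its probe read 2.35 and 2.36 on HuR, 2.85 and 2.86 on TIA1, 3.58 and 3.47 on TIAR, and 2.57 and 3.04 on GFP. It rose by 1.17 (SE 0.10, limma adjusted p = 0.00616) in TIAR- and 0.50 (SE 0.09, adjusted p = 0.0163) in TIA1-expressing cells. The difference between TIAR and TIA1 was 0.67 (SE 0.11, limma adjusted p = 0.0585), which missed the threshold.

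Cyclins A2 and B2 did not pass the test. CCNA2 read 2.18 and 2.12 on HuR, 1.99 and 1.89 on TIA1, 2.03 and 2.00 on TIAR, and 1.94 and 2.35 on GFP. CCNB2 read 4.10 and 4.12 on HuR, 3.91 and 3.90 on TIA1, 4.09 and 4.07 on TIAR, and 3.76 and 4.07 on GFP. Their differences from HuR ran from -0.21 to -0.03, with limma adjusted p of 0.13 to 0.814. CDC25C, another CDK1 phosphatase, differed by 0.13 and 0.06 (limma adjusted p = 0.327 and 0.654).

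Among the kinases, AURKB, the kinase of the chromosomal passenger complex, had the largest differences. It read 1.49 and 1.56 on HuR, 2.49 and 2.52 on TIA1, 2.14 and 2.36 on TIAR, and 2.04 and 2.31 on GFP. It rose by 0.98 (SE 0.09, limma adjusted p = 0.0045) in TIA1- and 0.72 (SE 0.12, adjusted p = 0.0195) in TIAR-expressing cells, just under 2-fold in the first, and the HuR arrays were below all others. BIRC5 (survivin), its partner in the complex, rose by 0.52 (limma adjusted p = 0.0158) with TIA1 and differed by 0.28 (adjusted p = 0.145) with TIAR.

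AURKA, the kinase of centrosomes and spindle poles, read 2.90 and 2.92 on HuR, 3.24 and 3.21 on TIA1, 3.46 and 3.33 on TIAR, and 2.74 and 3.42 on GFP. It rose by 0.49 (SE 0.10, limma adjusted p = 0.0313) in TIAR-expressing cells and differed by 0.32 (SE 0.09, adjusted p = 0.0505) in TIA1-expressing cells, while the GFP arrays spread over the range of all lines. NEK2, a centrosome kinase, rose with TIA1 at both of its probes, by 0.40 and 0.64 (limma adjusted p = 0.0328 and 0.0166), and with TIAR the adjusted p were 0.055 and 0.0644.

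PLK1, the Polo kinase, went the other way without passing the test. Its 3' probe read 2.93 and 2.81 on HuR, 2.63 and 2.41 on TIA1, 2.61 and 2.58 on TIAR, and 2.52 and 2.84 on GFP. Its 5' probe read -0.57 and -0.48 on HuR, -0.87 and -0.76 on TIA1, -0.83 and -0.95 on TIAR, and 0.47 and -0.64 on GFP. Differences from HuR were -0.36 to -0.27 with limma adjusted p of 0.0645 to 0.107, and on both probes all TIA1 and TIAR arrays lay below both HuR arrays. The GFP arrays of the 5' probe differed by 1.11, the largest gap between replicates of any mitosis probe.

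Of the checkpoint genes only BUB3, which carries checkpoint proteins to unattached kinetochores, passed the test, and its probes disagreed. The NM_004725 probe read 3.03 and 3.16 on HuR, 3.50 and 3.75 on TIA1, 3.51 and 3.36 on TIAR, and 2.28 and 3.14 on GFP, a rise of 0.53 (SE 0.13, limma adjusted p = 0.0364) with TIA1 and a difference of 0.34 (adjusted p = 0.0901) with TIAR. The NM_001007793 probe, further 5' in the gene, read 3.83 and 3.85 on HuR, 3.52 and 3.49 on TIA1, 3.48 and 3.45 on TIAR, and 3.56 and 4.05 on GFP. It was lower by -0.33 (SE 0.09, limma adjusted p = 0.045) and -0.37 (SE 0.09, adjusted p = 0.0468). The design names a different transcript for each of these probes.

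BUB1, a checkpoint kinase, read 2.30 and 2.29 on HuR, 2.56 and 2.43 on TIA1, 2.44 and 2.44 on TIAR, and 1.94 and 2.23 on GFP. MAD2L1, the protein that binds and restrains CDC20, read 3.42 and 3.42 on HuR, 3.29 and 3.07 on TIA1, 3.40 and 3.27 on TIAR, and 3.16 and 3.28 on GFP. Neither passed the test, with limma adjusted p of 0.166 to 0.57, and the same held for BUB1B and TTK, with differences of -0.10 to 0.22.

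Centromere and kinetochore genes leaned upwards with few calls. All 6 probes of CENPA, CENPE, CENPF, NDC80 and NUF2 were above 0 in the TIA1 comparison, from 0.10 to 0.42, and none passed the test. In the TIAR comparison 5 of 6 were above 0 and CENPA, the histone H3 variant that marks centromeres, rose by 0.71 (SE 0.15, limma adjusted p = 0.0344). CENPA, taken up for its pattern after its values were seen, read -0.23 and -0.32 on GFP, 0.53 and 0.63 on HuR, 1.09 and 0.80 on TIA1, and 1.46 and 1.12 on TIAR. The GFP arrays were lowest, then HuR, then TIA1, then TIAR, with no overlap between the lines.

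CENPF, a kinetochore and nuclear matrix protein, had probes of different sign in the TIAR comparison. The 5' probe read 0.02 and 0.20 on HuR, 0.19 and 0.22 on TIA1, -0.01 and -0.25 on TIAR, and -0.65 and -0.60 on GFP. The 3' probe read 4.97 and 4.87 on HuR, 5.15 and 5.31 on TIA1, 4.93 and 4.99 on TIAR, and 4.88 and 4.90 on GFP. No CENPF difference from HuR passed the test (limma adjusted p = 0.0832 to 0.785).

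Of 8 probes for 6 mitotic kinesins, 6 were above 0 with TIA1 and 7 with TIAR. KIF20A, which works in cytokinesis, rose in both, by 0.42 (SE 0.10, limma adjusted p = 0.0336) and 0.50 (SE 0.10, adjusted p = 0.0317). KIF4A, a chromosome-bound kinesin, rose by 0.40 (limma adjusted p = 0.0335) with TIA1 at its 3' probe. KIF23, the motor of the central spindle, read 2.24 and 2.09 on HuR, 2.16 and 1.81 on TIA1, 2.41 and 2.00 on TIAR, and 1.79 and 1.90 on GFP at its 5' probe, where the HuR arrays overlapped those of both TIA lines. Its 3' probe read 4.27 and 4.27 on HuR, 4.16 and 4.25 on TIA1, 4.31 and 4.15 on TIAR, and 3.79 and 4.15 on GFP. Adjusted p from limma for KIF23 were 0.405 to 0.877, and those of KIF11, KIF14 and KIF2C were 0.0564 to 0.469.

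Spindle and cytokinesis genes held 4 rises and 1 fall among 9 probes with TIA1, and 1 of each with TIAR. TPX2, an activator of Aurora A on spindle microtubules, rose by 0.58 (SE 0.10, limma adjusted p = 0.0145) with TIA1 and 0.64 (SE 0.12, adjusted p = 0.0273) with TIAR. NUSAP1, a microtubule bundling protein, rose by 0.80 (SE 0.13, limma adjusted p = 0.0138) and DLGAP5, a spindle assembly factor, by 0.41 (adjusted p = 0.036) with TIA1. The TIAR differences of NUSAP1 and DLGAP5, 0.50 and 0.32, missed the threshold (limma adjusted p = 0.142 and 0.0696). ANLN, ECT2 and PRC1, which build the cleavage furrow and the midzone, differed by -0.05 to 0.32 and did not pass the test.

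HMMR, the hyaluronan-mediated motility receptor, which also binds spindle microtubules, was the member with the largest fall and was taken up for that after its values were seen. It read 2.70 and 2.75 on HuR, 2.04 and 1.97 on TIA1, 2.20 and 2.26 on TIAR, and 1.72 and 2.43 on GFP. It fell by 0.72 (SE 0.09, limma adjusted p = 0.0081) in TIA1- and 0.50 (SE 0.09, adjusted p = 0.026) in TIAR-expressing cells, under 2-fold in both. The HuR arrays were above all 6 others.

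CKAP2, a microtubule-stabilising protein of the spindle, was called in the TIA1 comparison alone. Its 3' probe read 2.45 and 2.48 on HuR, 3.60 and 3.46 on TIA1, 2.77 and 2.78 on TIAR, and 2.78 and 2.77 on GFP. It rose by 1.07 (SE 0.10, limma adjusted p = 0.00446) in TIA1-expressing cells, and the TIAR difference was 0.31 (SE 0.09, adjusted p = 0.0692). The TIAR arrays lay at the GFP level, and TIAR minus TIA1 was -0.76 (SE 0.12, limma adjusted p = 0.0514), the lowest adjusted p of any mitosis probe between these lines.

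The 5' probe of CKAP2 read -1.36 and -1.23 on HuR, -0.86 and -1.13 on TIA1, -1.35 and -1.59 on TIAR, and -0.90 and -1.07 on GFP. Its differences from HuR were 0.29 and -0.18 (limma adjusted p = 0.15 and 0.35). Without HuR replicate 1, HuR replicate 2 or TIA1 replicate 1 the CKAP2 call was lost, and so was that of TOP2A.

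Anaphase and exit genes included the second strongest call. UBE2C, the ubiquitin-conjugating enzyme of the anaphase-promoting complex, read 3.29 and 3.19 on HuR, 4.71 and 4.60 on TIA1, 4.54 and 4.52 on TIAR, and 3.90 and 4.27 on GFP. It rose by 1.41 (SE 0.10, limma adjusted p = 0.00296), or 2.66-fold, in TIA1- and by 1.29 (SE 0.10, adjusted p = 0.00538), or 2.44-fold, in TIAR-expressing cells. HuR was lowest, GFP between, and the TIA lines highest, with no overlap between these 3 levels.

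CDC20, the activator of that complex, read 2.80 and 2.72 on HuR, 3.34 and 3.14 on TIA1, 3.39 and 3.29 on TIAR, and 2.62 and 3.07 on GFP. It rose by 0.47 (SE 0.11, limma adjusted p = 0.035) and 0.58 (SE 0.10, adjusted p = 0.0216). PTTG1 (securin), a substrate of the complex, read 5.55 and 5.60 on HuR, 5.47 and 5.52 on TIA1, 5.46 and 5.34 on TIAR, and 4.69 and 5.05 on GFP. Its differences of -0.07 and -0.17 from HuR did not pass the test (limma adjusted p = 0.562 and 0.261), nor did those of ESPL1 (separase), 0.14 and 0.18.

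TOP2A, the topoisomerase that untangles sister chromatids, is measured by 10 spots per array. It read 2.71 and 2.82 on HuR, 3.86 and 3.70 on TIA1, 3.82 and 3.66 on TIAR, and 2.89 and 3.24 on GFP. It rose by 1.02 (SE 0.11, limma adjusted p = 0.00579) with TIA1 and 0.98 (SE 0.11, adjusted p = 0.00993) with TIAR, which put it just inside and just outside 2-fold. Every TIA1 and TIAR array was above every GFP array, and every GFP array above both HuR arrays.

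**Figure D2:**
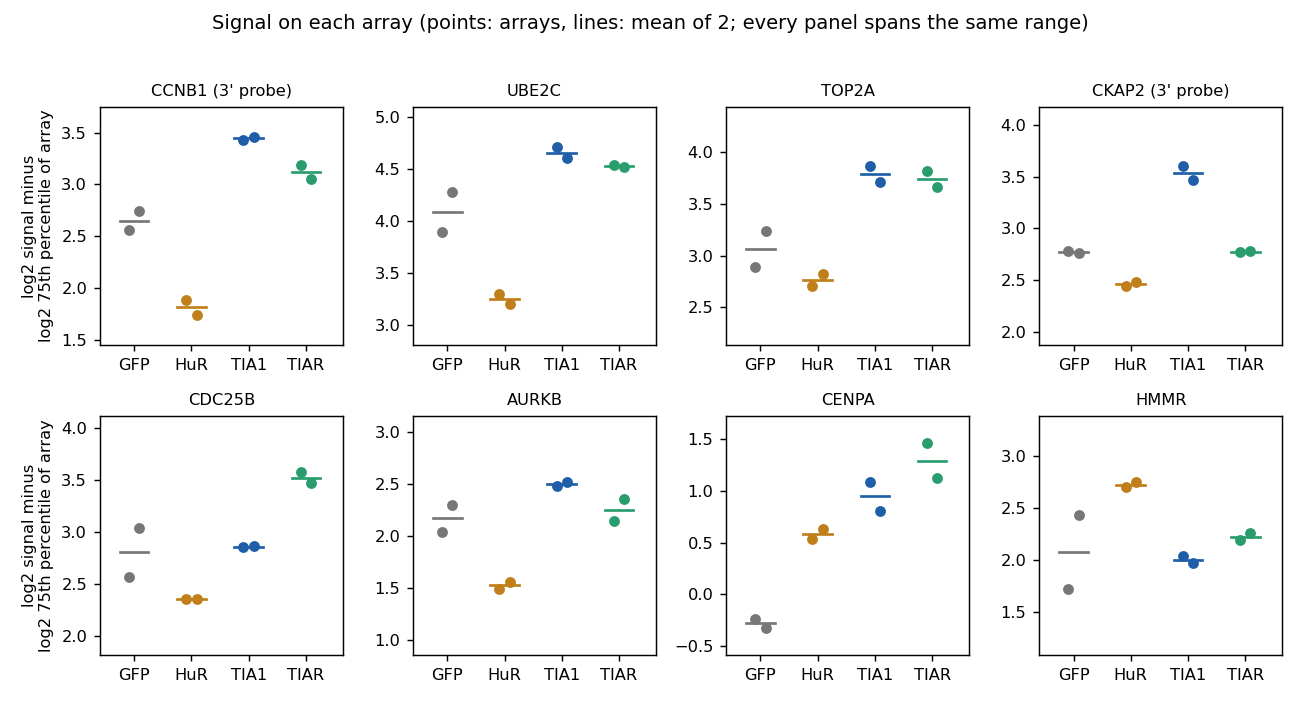
Log2 signal relative to the array's 75th percentile for 8 probes in the 4 lines, with a point for each array and a line for the mean of 2. In CCNB1 (3' probe), UBE2C and TOP2A the HuR arrays are lowest and the TIA1 and TIAR arrays highest, in CENPA the GFP arrays are lowest, and in HMMR the HuR arrays are highest.

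Because the 2 CCNB1 probes lie on 1 transcript, the log2 ratio of its 3' to its 5' probe was tested, a step added after the values were seen. The same ratio was fitted with limma over all transcripts with several tested probes, 3790 in the TIA1 and 3820 in the TIAR comparison. For CCNB1 the ratio was -2.90 and -3.01 on HuR, -1.85 and -1.997 on GFP, -1.04 and -0.91 on TIA1, and -1.24 and -1.33 on TIAR. The 4 lines did not overlap.

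The CCNB1 ratio was higher than in HuR-expressing cells by 1.97 (SE 0.15, adjusted p = 0.0105, limma) with TIA1 and by 1.67 (SE 0.14, adjusted p = 0.0209) with TIAR. It was the only one of 7 mitosis transcripts called at 2-fold, where 5.01% of all such transcripts were called in the TIA1 and 3.46% in the TIAR comparison. Leaving out either HuR array took its adjusted p past the threshold in both comparisons, as did leaving out TIAR replicate 1 in the TIAR comparison, with differences of 1.61 to 2.03. For CKAP2 the ratio was higher by 0.77 (SE 0.15, limma adjusted p = 0.0469) with TIA1, and by 0.49 (adjusted p = 0.177) with TIAR.

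In CENPF, KIF23, KIF4A, NEK2 and PLK1 the ratio differed by -0.08 to 0.28, with limma adjusted p of 0.382 to 0.95. The data give the ratio of the probes and not which form of the transcript changed, and a cross-hybridising RNA at one probe was not tested.

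**Figure D3:**
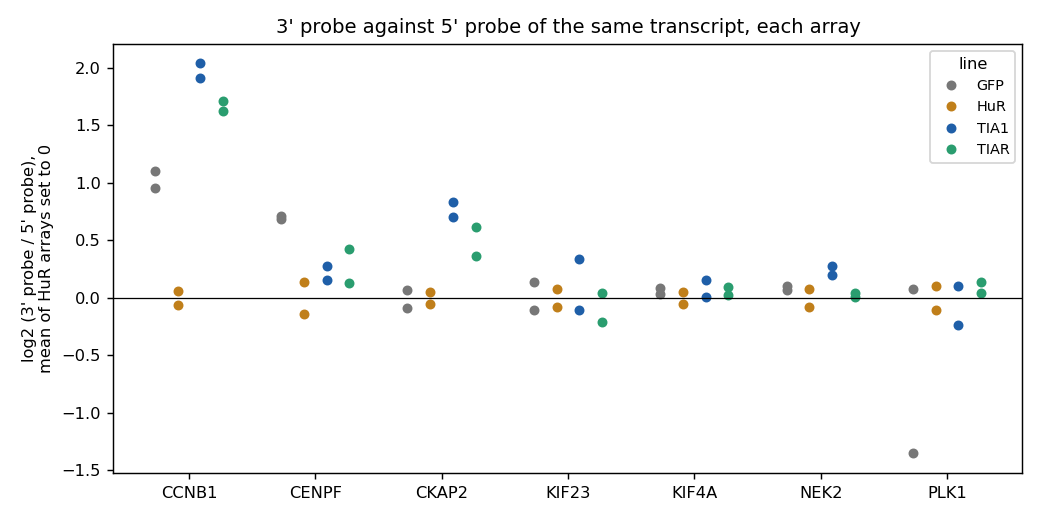
Log2 ratio of the 3' to the 5' probe of the same transcript on each array, with the mean of the HuR arrays set to 0, for the 7 mitosis transcripts with several tested probes. The CCNB1 ratio separates the 4 lines, that of CKAP2 is higher on TIA1 and TIAR arrays than on HuR and GFP arrays, and 1 GFP point of PLK1 lies far below the rest.

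Against GFP-expressing cells no probe of the whole array was called, 0 of 28052 for TIA1, 0 of 28617 for TIAR and 0 of 28879 for HuR, or 0% in each, which leaves the mitosis genes with 0 calls by limma too. At an unadjusted p under 0.05, 15 of the 49 mitosis probes, all higher, differed in TIA1-expressing cells, 30.6% beside 21.7% of all probes. For TIAR the count was 6, 12.2% beside 16.4%, and for HuR it was 8, 16.3% beside 17.2%. The lowest adjusted p were 0.112, 0.176 and 0.188. The study called array RNAs at 2-fold with a limma false discovery rate under 0.05. Its methods also name a paired t-test for its data in general, here termed the methods' t-test. Paired by replicate number, that test gave 2 mitosis probes at an unadjusted p under 0.05 and 2-fold for TIA1, beside 2.57% of all probes. It gave none for TIAR or HuR, beside 1.79% and 1.5%.

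Median differences from GFP over the 49 probes were 0.54 for TIA1, 0.42 for TIAR and 0.19 for HuR, beside 0.01, -0.02 and -0.04 over all tested probes. Without GFP 1 they were 0.34, 0.27 and 0.03, beside 0.04, 0.02 and -0.03. With quantile normalization the median for HuR was 0.04 beside 0.22 over all probes, so the excess of the mitosis probes over all probes turned from 0.24 to -0.19, while for TIA1 and TIAR it was 0.17 and 0.12. CENPA differed most in the TIA comparisons, by 1.22 and 1.57 (limma adjusted p = 0.112 and 0.176), followed for TIA1 by NUSAP1 at 1.09 (adjusted p = 0.132). Without the array that stood apart, GFP 1, and with the lone GFP array assumed to vary like the others, CENPA and NUSAP1 were called in the TIA1 comparison (1.27 and 1.24, both adjusted p = 0.0389), where 11.4% of all probes were called. CENPA was then called with TIAR (1.61, limma adjusted p = 0.0462) beside 6.38% of all probes, and UBE2C was called lower with HuR (-1.03, adjusted p = 0.0215) beside 8.53%.

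Taking all 8 arrays together, a count made after the values were seen, every TIA1 and TIAR array lay above every GFP and HuR array for 24 of the 49 probes, of 22 genes. That is 49% beside 13.8% of the 24954 probes well above background on all arrays. The reverse order held for 2 probes, the NM_001007793 probe of BUB3 and the 5' probe of PLK1, or 4.08% beside 10.2%. The count was 25 without GFP 1 (19.5% of all probes), 25 with quantile normalization (14.3%), 21 with the authors' values (13%) and 17 after normexp background correction (12.9%). Each slide row holds 1 TIA line and 1 control line. Within a row the medians over the 49 probes were 0.54 for TIA1 over GFP and 0.23 for TIAR over HuR. Over all tested probes they were 0.01 and 0.05. Without GFP 1 the median for TIA1 over GFP was 0.34, and the part of the slide row was not tested.

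The control lines were not alike. The GFP arrays were below all others for 18 probes, 36.7% beside 12%, among them those of CENPA, CDC25C, TTK, PTTG1, BUB1 and KIF20A, and above all others for 0, beside 8.71%. This count was made with the main values alone. The median over the 49 probes lay at -0.35 from HuR on GFP 1 and at -0.03 on GFP 2. For HuR over GFP the excess of the mitosis probes over all probes was -0.19 with quantile normalization and -0.225 with the authors' values. The HuR arrays were below all others for 7 probes, of AURKB, CCNB1, CDC25B, CKAP2, TOP2A, TPX2 and UBE2C, 14.3% beside 16%. They were above all others for 5 probes, of CCNB1, CCNB2, HMMR, MAD2L1 and PTTG1, 10.2% beside 13.2%. All genes called at 2-fold against HuR were thus among those lowest in HuR-expressing cells, and the same HuR arrays enter both statements.

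**Figure D4:**
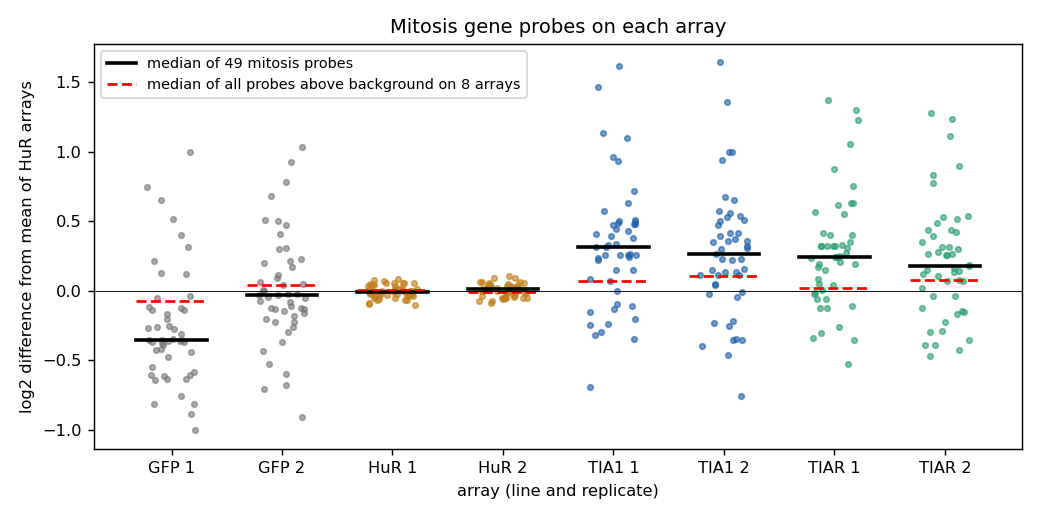
Log2 difference of each of the 49 mitosis probes from the mean of the HuR arrays, on each of the 8 arrays, with the median of the mitosis probes as a black line and the median of all probes well above background on all arrays as a dashed red line. The black lines lie at -0.35 and -0.03 for GFP, 0.31 and 0.26 for TIA1, and 0.24 and 0.18 for TIAR, while the red lines stay between -0.07 and 0.11.

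Between TIAR- and TIA1-expressing cells, no mitosis probe was called, beside 2.35% of all 28062 probes. At an unadjusted p under 0.05 there were 4 of 49, 8.16% beside 23.8%, of CKAP2 (both probes), CDC25B and the 3' probe of CCNB1. The median difference was -0.05, which turned to 0.09 with the authors' values.

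A further list of 108 genes with roles in mitosis, from the anaphase-promoting complex to condensin and the regulators of mitotic transcription, had 163 tested probes. In the TIA1 comparison with HuR their median was 0.24, with 50 probes higher and 14 lower at the adjusted p, or 30.7% and 8.59% beside 24.2% and 17.3% of all probes. Called upregulated were 5 and downregulated 0, or 3.07% and 0% beside 8.49% and 4.9%. In the TIAR comparison it was 0.13, with 35 higher and 16 lower, or 21.5% and 9.82% beside 18.1% and 12.6%. Called were 8 and 3, or 4.91% and 1.84% beside 7.06% and 3.01%. The APC/C genes, which mark mitotic proteins for destruction, stayed nearest 0, with medians of 0.07 and -0.01 over 23 probes. Condensin genes, whose products compact chromosomes, had medians of 0.47 and 0.40 over 13 probes.

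The largest called rises with TIA1 were in single probes of MKI67, the proliferation marker (1.56, limma adjusted p = 0.00265), TROAP, a spindle protein (1.54, adjusted p = 0.00286), and CENPM, a centromere protein (1.20, adjusted p = 0.00336). The other TROAP probe differed by 0.01, the other CENPM probes by 0.07 and 0.26, and the other MKI67 probes by 0.18 and 0.95, so these genes too had probes that disagreed in size. With TIAR the largest rises were in RBL1, a pocket protein that represses cell cycle genes (1.56, limma adjusted p = 0.0215), TROAP (1.51, adjusted p = 0.00496) and the kinetochore gene CENPH (1.40, adjusted p = 0.00533). Called lower with TIAR were CENPW, a centromere protein (-1.19, limma adjusted p = 0.0081), the condensin subunit NCAPG (-1.04, adjusted p = 0.0405) and 1 of 3 probes of the cohesin subunit SMC1A (-1.01, adjusted p = 0.00723).

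Regulators of these genes were measured as well. MYBL2, a transcription factor of mitotic genes, read 2.74 and 2.78 on HuR, 3.72 and 3.50 on TIA1, 3.62 and 3.45 on TIAR, and 2.45 and 3.04 on GFP, rising by 0.85 (SE 0.12, limma adjusted p = 0.00944) and 0.77 (SE 0.11, adjusted p = 0.0141). FOXM1, another such factor, differed by 0.17 and 0.08 (limma adjusted p = 0.439 and 0.622). CDKN1A (p21), an inhibitor of cyclin-dependent kinases, read -3.18 and -2.74 on HuR, -2.08 and -2.08 on TIA1, -2.73 and -2.72 on TIAR, and -2.91 and -2.93 on GFP. It rose by 0.88 (SE 0.18, limma adjusted p = 0.0222) with TIA1 and differed by 0.23 (adjusted p = 0.366) with TIAR, whose arrays lay just above the higher HuR array.

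Promoter windows from 250 bases before to 50 after the start were read from RefSeq (GRCh38.p14) for the 34 mitosis genes that matched, with 44 starts. The letters TTTGAA of a CHR, on either strand, were in 59.1% of them and in 15.2% of all 35116 such windows. CCAAT on either strand was in 72.7% against 34.6%, and both were in 47.7% against 5.9%. AURKA, BIRC5, BUB3, TTK, TPX2 and UBE2C had no entry that matched by symbol. Some of the matches in called or singled-out members are shown 5' to 3' on the gene's strand with the match in capitals, where positions count from the start and TTCAAA and ATTGG are TTTGAA and CCAAT on the other strand.
CCNB1 at -87 (chr5:69167051-69167079): gaccggcagccgCCAATgggaagggagtg
CCNB1 at -55 (chr5:69167083-69167111): gccacgaacaggCCAATaaggagggagca
TOP2A at -194 (chr17:40418073-40418102, minus strand): cgagtggtgcctTTTGAAgcctctctagtc
TOP2A at -151 (chr17:40418030-40418059, minus strand): ctgattggtttaTTCAAAcaaaccccggcc
CENPA at -18 (chr2:26786026-26786055): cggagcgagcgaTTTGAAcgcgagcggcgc
CDC25B at -73 (chr20:3796225-3796253): acccgctaccccATTGGtggcgtccggcg
HMMR at -28 (chr5:163460592-163460621): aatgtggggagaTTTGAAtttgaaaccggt

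Against HuR-expressing cells, TOP2A rose with both TIA proteins, CENPA rose with TIAR, and HMMR fell with both. The windows of TOP2A, CENPA and HMMR held the CHR letters. Those of CCNB1 and CDC25B held CCAAT and no TTTGAA, and that of CKAP2 held neither. A match of letters does not show a site in use, and its absence says only that the letters are not in this window.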

How the data were processed

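RNA of 4 FT293 lines, 2 arrays each, was labelled with Cy3 and hybridised to Agilent human one-colour arrays on 1 slide, scanned once. The deposited scanner files hold spot intensity values from Feature Extraction 10.7.3.1, background-subtracted and detrended within each array, with probe positions on hg19. The authors also deposited log2 values that they had quantile-normalized with limma, with a background correction not given in the sources used here, and these served as an alternative.

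From the processed intensity, log2 values were taken after division by the 75th percentile of the array, without control or outlier spots, and repeated spots were averaged per probe. Probes entered a test if either line had them well above background on its 2 arrays. Lines were compared with lmFit and eBayes of limma 3.58.1 in R 4.3.3 on the 4 arrays of a comparison, with Benjamini-Hochberg adjustment over all tested probes, a threshold of 0.05 and at least 2-fold. The fit was tested on simulated data. Figures were drawn with matplotlib 3.10.9.

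The mitosis genes, the further list and the rule for naming genes were chosen with earlier results of these data known. By that rule all 40 genes could be named, and values on every array were given for called genes, for genes whose probes disagreed and for 12 core regulators. Other genes were named from the further list where called, at most 3 per direction and comparison, with CDKN1A, FOXM1 and MYBL2. The labels describe the arrays of a line as independent replicates, without stating separate cultures, so the p-values measure the spread between these arrays. The alternatives were normexp with an offset of 50, quantile normalization, the authors' values, no filter, all 8 arrays in 1 fit, the replicate number as a block, the methods' t-test, no minimum of fold, and each array left out. The order of the lines, the ratios of probes and the single-probe values without GFP 1 were added after the values were seen.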

Additional observations from a re-analysis of the deposited data

How the results depend on the processing

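Against HuR, 4 mitosis probes were called for TIA1 and 3 for TIAR. The methods' t-test, paired by replicate number, gave 2 for TIA1 and 3 for TIAR with an unadjusted p, beside 6.81% and 4.62% of all probes. With Benjamini-Hochberg adjustment it called 0% of all probes in both comparisons. Its 0 for the mitosis probes thus cannot tell whether their calls hold. Without a minimum of fold limma gave 20 and 13. Leaving out 1 array at a time changed these counts and the share called over all probes. The medians over the mitosis probes then ran from 0.26 to 0.31 for TIA1 and from 0.18 to 0.25 for TIAR. Against GFP, where 0 were called, a fit of all 8 arrays gave 2 for TIA1 and 2 for TIAR, beside 9.09% and 5.99% of all probes. The methods' t-test with an unadjusted p gave 2 for TIA1, beside 2.57%. Leaving out 1 GFP array changed the calls over all probes as well. Without GFP 2 the medians over the mitosis probes were 0.61, 0.56 and 0.35 for TIA1, TIAR and HuR. Over all probes they were -0.68, -0.64 and -0.77. With the authors' values the median over the mitosis probes turned to 0.085 for TIAR against TIA1 and to -0.065 for HuR against GFP, and moved to 0.335 for TIAR against HuR and 0.30 for TIA1 against GFP. The cause was not tested.

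The counts with no minimum of fold were less steady. From 20 for TIA1 against HuR they went to 5 with no filter and 6 with all 8 arrays, and from 13 for TIAR to 4 and 5. They also fell without either HuR array. The share of all probes past the same adjusted p is not given here for these settings. The share of all probes called at 2-fold fell too, from 13.4% to 7.12% and 9.31% for TIA1. For TIAR it fell from 10.1% to 4.76% and 6.3%. With no filter the median of all probes was itself 0.33 and 0.22, so the excess of the mitosis probes over all probes ran from -0.01 to 0.33 for TIA1 and from 0.003 to 0.39 for TIAR over 14 settings. With the replicate number as a block the called counts stayed at 4 and 3 and the counts with no minimum of fold became 13 and 5, but the numbers do not pair the samples, since deviations of same-numbered arrays correlated at -0.0896 to 0.184 over the 6 comparisons. With 2 arrays a line, leaving 1 out assumes that the lone array varies like the others.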
